A study of Mus musculus with 12 samples.

Results

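The Hox genes were taken as every gene of the count table whose symbol is Hox followed by a cluster letter from a to d and a paralog number. This rule, which uses names and no measured value, found 39 of the 31641 genes in the table. They comprise 11 genes of the Hoxa cluster on chromosome 6, 10 of the Hoxb cluster on chromosome 11, 9 of the Hoxc cluster on chromosome 15 and 9 of the Hoxd cluster on chromosome 2, all protein-coding in the GENCODE M21 annotation of mouse genome build GRCm38. The RNA-seq libraries came from 4 lines of mouse embryonic stem cells, derived from blastocysts of strain C57BL/6, with 3 libraries per line and 12 in all. WT-1 and WT-2 carry the wild-type genotype, and Mut-1 and Mut-2 carry Tin2 S341X, an allele of the gene Tinf2, which encodes a subunit of the shelterin complex at telomeres. All lines were kept in serum and LIF (leukemia inhibitory factor) on mouse embryonic fibroblasts (MEF), and total RNA was taken from stem cells on this feeder layer, so every library can hold feeder RNA. The series describes the libraries of a line as technical replicates. A genotype is therefore 2 lines, and p-values between lines measure the spread between libraries of a line, which may be technical.

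Hox genes encode homeodomain transcription factors that give cells their position along the head-to-tail axis. Low paralog numbers act in the hindbrain and neck, middle numbers in the trunk, and the highest numbers in the lumbar to tail region, the ends of the limbs and the urogenital tract. In embryonic stem cells the clusters are classically held silent by Polycomb complexes on CpG-rich DNA and are opened in order during differentiation, under Cdx factors, Wnt and retinoic acid signals. Fibroblasts, in contrast, keep a stable Hox code of the body site they came from.

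Library totals ran from 14766477 to 17891894 counts. Stem cell identity was checked with Pou5f1, Nanog, Sox2, Zfp42 and Esrrb, whose summed level ran from 2050 to 2767 CPM (read counts scaled to library size with TMM normalization) in wild-type and from 2285 to 2736 CPM in mutant libraries. Tinf2 itself lay between 57.4 and 69.5 CPM in wild-type and between 19.8 and 29.7 CPM in mutant libraries. The 8 defining feeder markers (Col1a1, Col1a2, Col3a1, Pdgfrb, Thy1, Dcn, Lum and Postn) were detected in every library, none below 0.714 CPM. Over the whole feeder list, 36 of 37 genes were in the table, and their summed level ran from 10072 to 13507 CPM in wild-type and from 11608 to 22124 CPM in mutant libraries. All 36 had a higher mutant level in the genotype fit, of which 0 passed edgeR's adjusted p and 34 had an unadjusted p under 0.05. Over all genes in that fit, 0.0% passed the adjusted p and 9.17% were higher at an unadjusted p under 0.05. Mut-1 replicate 1, Mut-2 replicate 1 and Mut-2 replicate 2 held the most feeder signal, between 19072 and 22124 CPM, against at most 13582 CPM in the other 9 libraries. In these bulk cultures a different number of cells of a type and a different amount of RNA per cell cannot be told apart.

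Hox transcripts were a small part of each library, and the Hoxb and Hoxc clusters made up most of it. The 39 genes together held between 880 and 2081 counts per library, that is between 58.2 and 124.2 CPM. The Wilson 95% interval was 54.4 to 62.1 CPM for the lowest library and 118.9 to 129.6 CPM for the highest, and covers counting error only. Hoxb9, a gene of thoracic patterning, held 16.1% of all Hox counts with a mean of 15.2 CPM over the 12 libraries. Hoxc13, which acts in hair and nail formation, held 15.5% with 14.5 CPM, and Hoxc8, a trunk gene, held 10.6% with 9.998 CPM. Per kilobase of exon the order at the top was Hoxc13 at 5.91 RPKM (CPM per kilobase), Hoxb9 at 5.89, Hoxc8 at 3.53 and Hoxc12 at 3.32 RPKM. Hoxc13 and Hoxb9 did not differ on this scale beyond the spread of the libraries, whose coefficient of variation was 18.0% for Hoxc13 and 21.6% for Hoxb9. By cluster, Hoxc took 47.6% of the Hox counts, Hoxb 27.3%, Hoxa 13.9% and Hoxd 11.3%. No Hoxd gene had a mean above 3.47 CPM.

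**Figure D1:**
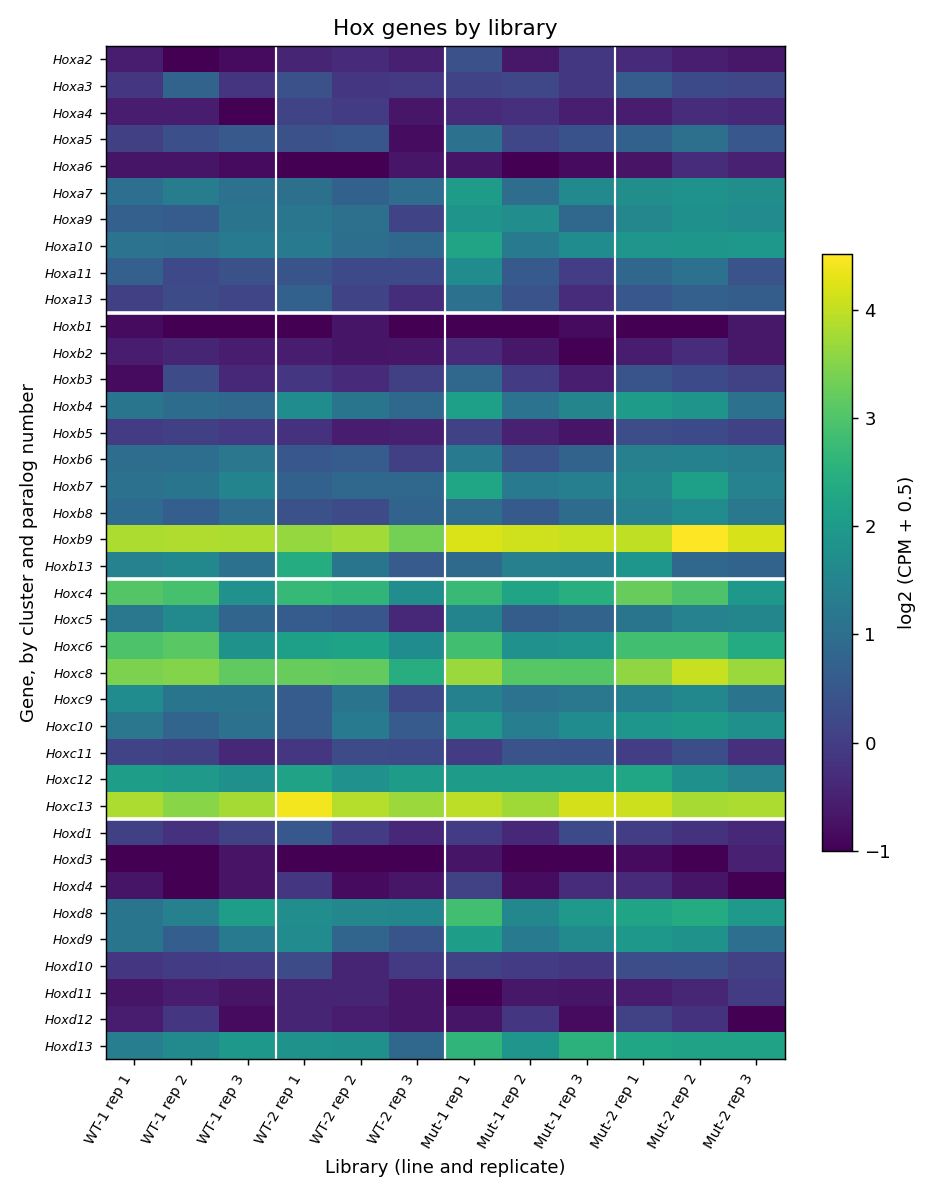
Level of 38 of the 39 Hox genes (rows, by cluster and paralog number) in the 12 libraries (columns, by line), as log2 of CPM plus 0.5; white lines part the clusters and the lines. Hoxb9, Hoxc8 and Hoxc13 are the brightest rows in every line, and Hoxb1 and Hoxd3 lie at or near 0 in every library.

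Hoxb1 and Hoxd3, both of low paralog number, had the fewest counts. Hoxb1, a hindbrain gene that responds early to retinoic acid, had 6 counts over the 12 libraries and was at 0 in 8 of them. Hoxd3 had 8 counts in all and was also at 0 in 8 libraries, where a count of 0 still allows up to 0.176 to 0.207 CPM (3 counts, counting error only).

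Between genotypes, most Hox genes had a higher mutant level, by amounts that did not pass the test for any of them. The test was edgeR's quasi-likelihood fit of the 4 line totals over all genes. Of the 39 genes, 33 had enough reads to be tested; Hoxa6, Hoxb1, Hoxb2, Hoxd3, Hoxd4 and Hoxd11 did not. With 33 tested, 30 were higher in the mutant lines and 3 lower, with a median log2 fold change (mutant minus wild type) of 0.46. Over all 18749 genes tested, 49.8% were higher and the median was -0.0016. The adjusted p passed 0.05 for 0 of the 33 Hox genes, against a background of 0.0% of all genes in this fit. Before adjustment, 12 Hox genes were higher at p under 0.05 and 0 were lower, where the background was 9.17% higher and 3.88% lower. DESeq2 on the same totals called 1.92% of all genes and 0 Hox genes, with 9 Hox genes higher at an unadjusted p under 0.05 (background 7.29%). The smallest adjusted p of a Hox gene was 0.214 in edgeR and 0.0868 in DESeq2, both for Hoxc10.

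The summed Hox level of the line totals was 86.7 CPM for WT-1 and 77.7 CPM for WT-2, and 101.5 CPM for Mut-1 and 112.0 CPM for Mut-2. This gave 82.2 ± 6.39 CPM for wild type and 106.8 ± 7.42 CPM for mutant (SD, n = 2 lines), a 1.30-fold difference. By library the wild-type sum ran from 58.2 to 94.9 CPM and the mutant sum from 83.0 to 124.2 CPM, and 5 of 6 mutant libraries lay above every wild-type library. The 3 libraries of highest Hox sum were the 3 of highest feeder signal, at 117.6 CPM (Mut-2 replicate 1), 123.9 CPM (Mut-2 replicate 2) and 124.2 CPM (Mut-1 replicate 1). The other 3 mutant libraries averaged 91.8 CPM, against 81.2 CPM for the 6 wild-type libraries. Among the libraries of lower feeder signal, Hox sums did not follow the order of feeder signal. WT-1 replicate 1 had a Hox sum of 89.0 CPM at 10785 CPM of feeder genes, and WT-1 replicate 3 had 79.5 CPM at 13507 CPM. Mut-2 replicate 3 had the highest of both among them, 97.0 CPM at 13582 CPM.

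**Figure D2:**
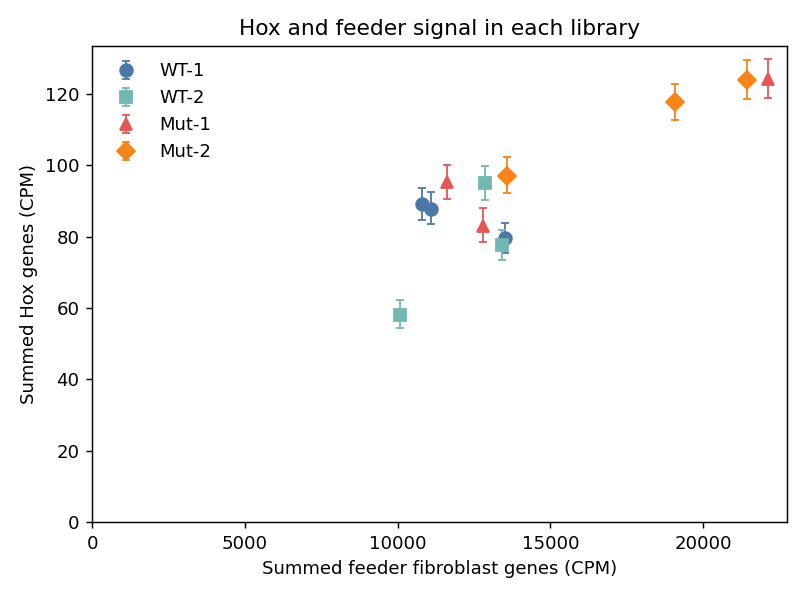
Summed level of the 39 Hox genes (vertical axis, CPM, bars: Wilson 95% interval of the count) against the summed level of the feeder fibroblast list (horizontal axis, CPM) in each of the 12 libraries, with 1 symbol per line. The libraries with at least 19072 CPM of feeder genes are 3 mutant libraries with Hox sums between 117.6 and 124.2 CPM, and the other 9 lie between 58.2 and 97.0 CPM.

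How each Hox gene moved with feeder signal was measured in a limma-voom fit of the 12 libraries that holds genotype and log2 summed feeder CPM as terms. Of the 28 Hox genes tested there, 27 had a positive feeder term, with a median of 0.69 (log2 change per doubling of feeder signal), while the median over all 16533 genes was 0.03. No single Hox gene passed the adjusted p for this term, where 1.75% of all genes passed with a positive term. The highest terms were 1.69 for Hoxa5, which acts in lung and trachea, 1.61 for Hoxa11, which patterns the forearm and uterus, 1.61 for Hoxb3 and 1.44 for Hoxa13. Hoxc13, Hoxb13 and Hoxc12 had terms of 0.11, 0.06 and 0.00, and Hoxc11 one of -0.45 with a standard error (SE) of 0.53. With the feeder term in the fit, the genotype log2 fold change of the 28 genes had a median of 0.18 in place of 0.55 without it. Genotype values given below as with the feeder term are from this limma-voom fit, so they differ in method from edgeR values too. In that fit 22 were higher in mutant lines, 0 passed the adjusted p (background 0.115%) and 3 were higher at an unadjusted p under 0.05 (background 5.95%). Those 3 were Hoxc10 at 0.79, Hoxa10 at 0.58 and Hoxb9 at 0.35. In edgeR on line totals without the 3 libraries of highest feeder signal, 23 of 31 Hox genes were higher with a median of 0.20 and 0 called, where 50.7% of all genes were higher and 0.0% called. Without the 4 mutant libraries above every wild-type library in feeder signal, which leaves 2 libraries of Mut-1, 20 of 33 were higher with a median of 0.11 and 0 called, where 48.9% of all genes were higher and 0.798% called. The lone mutant line is there taken to vary like the wild-type lines.

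**Figure D3:**
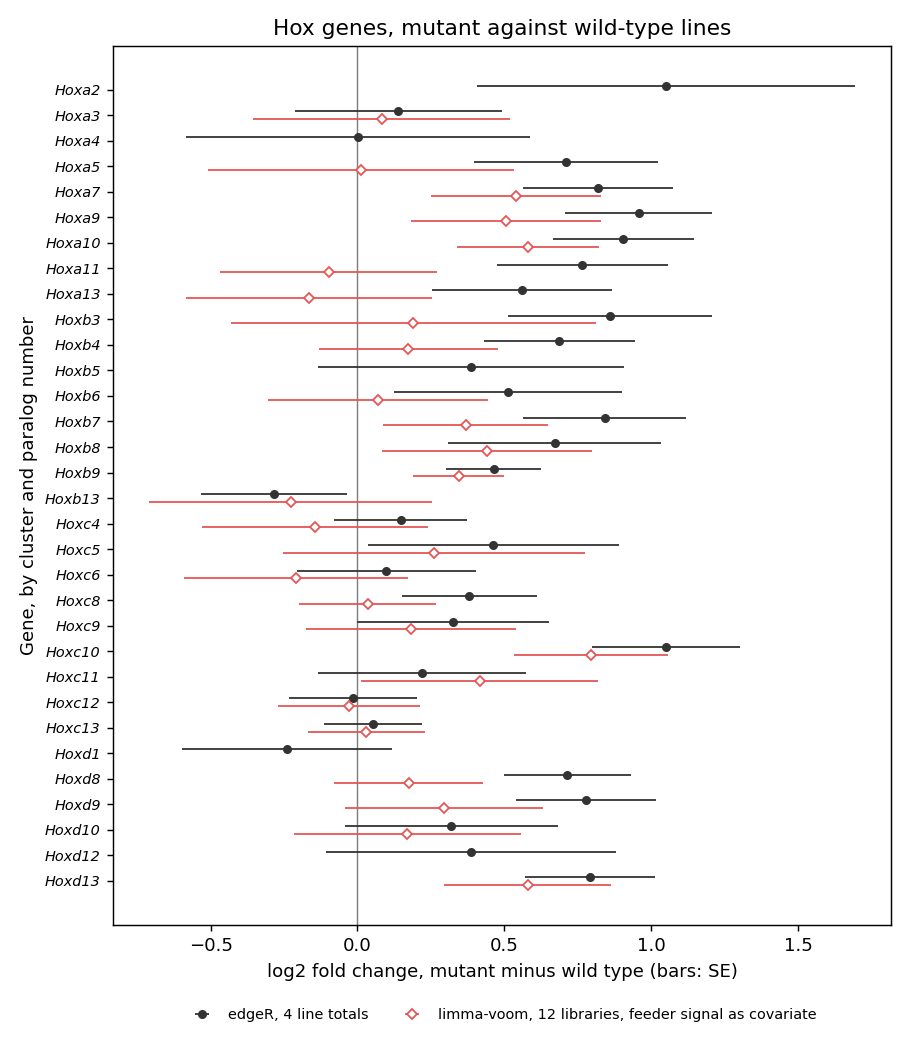
Genotype log2 fold change (mutant minus wild type, bars: SE) of 32 of the 33 Hox genes tested, from the edgeR fit of 4 line totals (filled circles) and, for the 27 of them in it, from the limma-voom fit with feeder signal as a covariate (open diamonds). Hoxa11 goes from 0.77 to -0.10 and Hoxd8 from 0.71 to 0.17, whereas Hoxc10 goes from 1.05 to 0.79 and Hoxb9 from 0.46 to 0.35. The fits also differ in method. Limma-voom without the feeder term, not drawn, gave 0.58 for Hoxa11, 0.69 for Hoxd8, 1.07 for Hoxc10 and 0.47 for Hoxb9.

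Hoxc10 and Hoxb9 were the genes whose mutant libraries all lay above all wild-type libraries, 2 of 39; the background was 1.28% of the genes tested. No Hox gene was lower in this way (background 0.645%). The count was 5 without WT-1 replicate 3, with Hoxa10, Hoxb7 and Hoxd13 added (background 2.19%), and 5 without Mut-1 replicate 2, with Hoxa7, Hoxa10 and Hoxd13 added (background 1.65%). Hoxc10, a gene of lumbar and hindlimb patterning, lies at chromosome 15, positions 102966796 to 102971893, plus strand. It had 1.76, 1.25 and 1.62 CPM in the WT-1 libraries and 1.02, 1.96 and 0.99 CPM in those of WT-2. In the Mut-1 libraries it had 3.44, 2.07 and 2.73 CPM and in those of Mut-2 3.22, 3.49 and 2.93 CPM. The lowest mutant library, at 2.07 CPM, was close to the highest wild-type one at 1.96 CPM. The means of line totals were 1.46 ± 0.16 CPM and 2.98 ± 0.29 CPM (SD, n = 2 lines each). This is a log2 fold change of 1.05 with an SE of 0.25. In the limma-voom fit of 12 libraries without the feeder term, Hoxc10 was the 1 Hox gene called, with an adjusted p of 0.0281. The background was 1.41% of genes in either direction, 1.17% higher. With the feeder term the limma-voom adjusted p of Hoxc10 was 0.334. The correlation estimated within a line was -0.0025 without and 0.050 with the feeder term. The p-values of both fits therefore treat libraries of a line nearly as independent, unlike the edgeR fit of line totals. By exon annotation 8.70% of the bases of Hoxc10 are shared with Hoxc5, and their reads cannot be told apart there.

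Hoxb9 lies at chromosome 11, positions 96271457 to 96276595, plus strand. It had 13.7, 14.1 and 13.7 CPM in the WT-1 libraries and 11.9, 13.03 and 9.78 CPM in those of WT-2. In the Mut-1 libraries it had 18.0, 16.7 and 16.1 CPM and in those of Mut-2 15.3, 22.3 and 17.5 CPM. The ranges of the genotypes did not overlap, with 14.1 CPM as the highest wild-type and 15.3 CPM as the lowest mutant value. The log2 fold change was 0.46 with an SE of 0.16 and an edgeR adjusted p of 0.304.

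**Figure D4:**
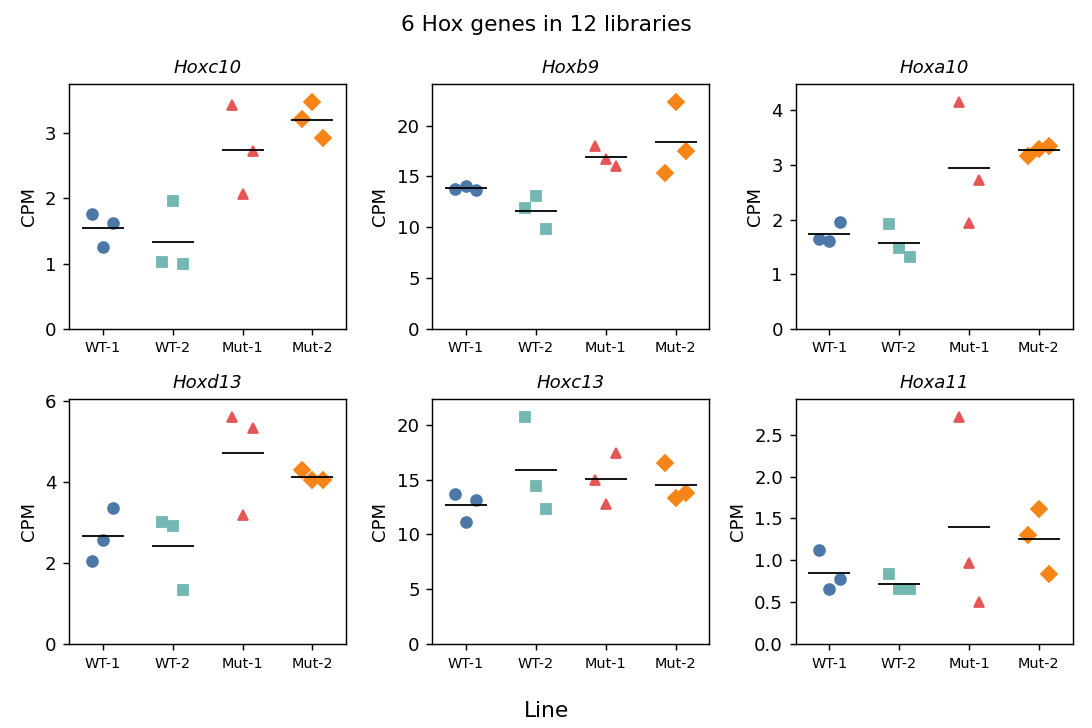
CPM of 6 Hox genes in the 3 libraries of each line (symbols), with the mean of the line as a bar. Mutant and wild-type libraries do not overlap for Hoxc10 and Hoxb9, overlap in 1 mutant library for Hoxa10 and Hoxd13, and overlap widely for Hoxc13 and Hoxa11.

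In the Hoxa cluster all 10 genes tested were higher in the mutant lines, with a median log2 fold change of 0.74. Hoxa4 was among them at only 0.0019 with an SE of 0.59. This cluster had 0 adjusted calls (background 0.0%) and 4 higher genes at an unadjusted p under 0.05 (background 9.17%). The summed cluster had 10.2 ± 0.21 CPM in wild-type and 16.1 ± 0.73 CPM in mutant line totals (SD, n = 2 lines each), a 1.58-fold difference, and 4 of 6 mutant libraries lay above every wild-type library. Hoxa10, which acts in the lumbar spine and uterus, had 1.32, 1.63 and 1.95 CPM as lowest, median and highest wild-type library and 1.93, 3.23 and 4.16 CPM in the mutants. Only its lowest mutant library, Mut-1 replicate 2, fell within the wild-type range. Its log2 fold change was 0.90 with an SE of 0.24 and an adjusted p of 0.228. Hoxa9, known from blood progenitors and leukaemia, ran over 0.59, 1.33 and 1.74 CPM in wild type and 1.30, 2.70 and 3.13 CPM in mutants, with a log2 fold change of 0.96 ± 0.25 (SE) and an adjusted p of 0.228. Hoxa7, a trunk gene, ran over 1.13, 1.55 and 2.02 CPM and 1.45, 2.81 and 3.62 CPM, with 5 of 6 mutant libraries above the wild-type range and a log2 fold change of 0.82 ± 0.26 (SE). Hoxa11 differed from these. Its log2 fold change was 0.77, and 3 mutant libraries lay above the wild-type range of 0.65 to 1.12 CPM. These were the 3 of highest feeder signal, Mut-1 replicate 1 at 2.71, Mut-2 replicate 2 at 1.62 and Mut-2 replicate 1 at 1.30 CPM. The other 3 mutant libraries averaged 0.77 CPM, which is 0.98 times the mean of the wild-type libraries, and the lowest had 0.50 CPM. Antisense transcript Hoxa11os shares 35.0% of the exon bases of Hoxa11, and the strand setting of the counts is not given in the sources used here.

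In the Hoxb cluster 7 of 8 genes tested were higher, with a median log2 fold change of 0.59. This cluster had 0 adjusted calls (background 0.0%) and 4 higher genes at an unadjusted p under 0.05 (background 9.17%). It was the cluster whose summed level separated the genotypes, with wild-type libraries from 16.0 to 23.8 CPM and mutant libraries from 25.1 to 37.1 CPM. Hoxb9 was the largest part of that sum, and without Hoxb9 the genotypes overlapped. In WT-2 replicate 1 Hoxb9 held 11.9 of 23.2 CPM, and in Mut-1 replicate 2 it held 16.7 of 25.1 CPM. Hoxb4, known for its use in expanding blood stem cells, had 1.28, 1.57 and 2.70 CPM as lowest, median and highest wild-type library and 1.60, 2.73 and 3.80 CPM in mutants, with a log2 fold change of 0.69 ± 0.26 (SE). Its mutant libraries of highest feeder signal averaged 3.51 CPM and the other 3 averaged 1.87 CPM, which is 1.10 times the mean of the wild-type libraries. Hoxb7 ran over 1.14, 1.45 and 2.29 CPM in wild type and 1.93, 2.33 and 4.28 CPM in mutants, with a log2 fold change of 0.84 ± 0.28 (SE) and an adjusted p of 0.281. Hoxb13, a gene of the tail bud and prostate that lies apart from the rest of the cluster, was 1 of the 3 Hox genes with a lower mutant level, at -0.28 ± 0.25 (SE), the others being Hoxd1 at -0.24 and Hoxc12 at -0.01.

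Between Hoxb13 and Hoxb9 lies Gm53, annotated as a long intergenic RNA at chromosome 11, positions 96251105 to 96264868, whose mean of 23.3 CPM was above that of every Hox gene. It had between 232 and 521 counts per library, or 23.6 ± 4.33 CPM in wild-type and 23.4 ± 0.86 CPM in mutant lines (SD, n = 2 each), a log2 fold change of 0.01 with an SE of 0.16. The next gene downstream, Mir196a-1, starts 296 bp after the end of Gm53 and ends 6192 bp before Hoxb9. It had 13 to 60 counts per library, with 2.101 ± 0.70 CPM in wild-type and 2.04 ± 0.13 CPM in mutant lines and a log2 fold change of -0.02 with an SE of 0.29. Beside these stands the 1.38-fold higher mutant level of Hoxb9; the difference between Hoxb9 and its neighbours was not tested. Reads at this locus in a total RNA library can come from a longer precursor, and the mature miRNA was not measured. Of the 27 other genes of the table that lie inside the clusters, the remaining 25 had at most 14 counts in any library, among them Hotair, the Hoxc antisense RNA, with 12 counts over all libraries.

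The clusters encode miRNAs of 2 families whose 5p arms share a seed, bases 2 to 8, and the miR-196 family is known to target Hox mRNAs, Hoxb8 above all. The mature sequences from RefSeq (build GRCm38.p6) are printed to show the shared seeds, in capitals. Within each pair the sequences differ at 1 base outside the seed.
mmu-miR-196a-5p: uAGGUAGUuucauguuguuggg
mmu-miR-196b-5p: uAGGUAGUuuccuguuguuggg
mmu-miR-10a-5p: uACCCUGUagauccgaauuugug
mmu-miR-10b-5p: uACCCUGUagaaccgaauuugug

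Among the annotated transcripts of the 39 genes, the stretch that pairs best with miR-196a-5p over its whole length is in the 3′ untranslated region of Hoxb8 (GRCm38 chromosome 11, positions 96284888 to 96284909, plus strand). It is shown with the bases opposite the seed in capitals.
Hoxb8 site: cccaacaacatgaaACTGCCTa
All 22 bases can pair, 21 as Watson-Crick pairs and 1 as a G to U wobble, which is opposite the seed. The best stretch in any other Hox gene paired 19 of 22 bases. The seed match ACTACCT (this strand of the transcript only) is in a transcript of 11 of the 39 Hox genes, 28.2%, and in 16.7% of 21877 protein-coding genes; a match is a description and not a measured site. Hoxb8 itself was at 1.34 CPM (WT-1), 0.89 CPM (WT-2), 1.29 CPM (Mut-1) and 2.19 CPM (Mut-2), so that Mut-2 stood above the other 3 lines. Its log2 fold change between genotypes was 0.67 with an SE of 0.36 and an edgeR adjusted p of 0.473.

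In the Hoxc cluster 8 of 9 genes tested were higher, with a median log2 fold change of 0.22 and 0 adjusted calls (background 0.0%). At an unadjusted p under 0.05, 1 of the 9 was higher, Hoxc10, which is near the background of 9.17%. The cluster sum was 41.9 ± 3.54 CPM in wild-type and 47.9 ± 4.71 CPM in mutant lines (SD, n = 2 each), a 1.14-fold difference, and 3 of 6 mutant libraries lay above every wild-type library. Hoxc13 had 11.1, 13.4 and 20.7 CPM as lowest, median and highest wild-type library and 12.8, 14.4 and 17.5 CPM in mutants, so that the mutant range lay inside the wild-type range. Its log2 fold change was 0.05 with an SE of 0.17, and leaving out line WT-1 turned it to -0.09. Hoxc12, its neighbour, ran from 2.90 to 4.03 CPM in wild type and 2.23 to 4.24 CPM in mutants. Hoxc8 had 4.89, 8.79 and 10.8 CPM in wild type and 7.81, 11.9 and 16.0 CPM in mutants, with a log2 fold change of 0.38 ± 0.23 (SE). On line totals it was -0.14 without the 4 mutant libraries of feeder signal above every wild-type library, which leaves out all of Mut-2. Without line Mut-2 the value for Hoxc8 was 0.10. With both mutant lines kept, it was 0.20 without the 3 libraries of highest feeder signal and 0.03 in limma-voom with the feeder term. Hoxc4, a gene of the neck region, had 2.78, 5.80 and 7.70 CPM in wild type and 3.35, 5.56 and 8.93 CPM in mutants, with a log2 fold change of 0.15 ± 0.23 (SE) and one of -0.15 with the feeder term. Hoxc6 had 2.71 to 8.15 CPM in wild type and 2.97 to 6.72 CPM in mutants.

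In the Hoxd cluster 5 of 6 genes tested were higher, with a median log2 fold change of 0.55. This cluster had 0 adjusted calls (background 0.0%) and 3 higher genes at an unadjusted p under 0.05 (background 9.17%). The sum was 8.28 ± 0.07 CPM in wild-type and 13.04 ± 0.50 CPM in mutant lines (SD, n = 2 each), a 1.58-fold difference, and Hoxd13, Hoxd8 and Hoxd9 made up most of both sums. Hoxd13, which shapes the digits, had 1.32, 2.74 and 3.35 CPM as lowest, median and highest wild-type library and 3.18, 4.17 and 5.61 CPM in mutants. Only Mut-1 replicate 2 overlapped with wild type. Its log2 fold change was 0.79 with an SE of 0.22 and an adjusted p of 0.238, and with the feeder term it was 0.58. Hoxd8 had 1.71, 2.41 and 3.74 CPM in wild type and 2.48, 3.77 and 6.63 CPM in mutants, with a log2 fold change of 0.71 ± 0.22 (SE), and 0.17 with the feeder term. Hoxd9 had 0.86, 1.48 and 2.64 CPM in wild type and 1.53, 2.80 and 3.74 CPM in mutants, with a log2 fold change of 0.78 ± 0.24 (SE), and 0.29 with the feeder term. Hoxd3 and Hoxd4, which each share over 50% of their annotated exon bases with other genes, including each other, had 8 and 36 counts in all and were not tested.

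The start regions of Hoxd13 and Hoxd8 are printed to show a start region of many and one of few CpG in the same cluster, for 2 genes described above. RefSeq start regions of 300 bases around the start were matched for 22 of the 39 genes, some with several starts, which gave 24 regions with a median of 14.5 CG; over 32851 regions of all genes the median was 7. The Hoxd13 region (GRCm38.p6, chromosome 2, positions 74667975 to 74668274, plus strand) holds 37 CG, a number that 5.58% of all regions reach. The Hoxd8 region (chromosome 2, positions 74704365 to 74704664, plus strand) holds 6 CG, which 56.4% reach. CG is in capitals.
Hoxd13 start region: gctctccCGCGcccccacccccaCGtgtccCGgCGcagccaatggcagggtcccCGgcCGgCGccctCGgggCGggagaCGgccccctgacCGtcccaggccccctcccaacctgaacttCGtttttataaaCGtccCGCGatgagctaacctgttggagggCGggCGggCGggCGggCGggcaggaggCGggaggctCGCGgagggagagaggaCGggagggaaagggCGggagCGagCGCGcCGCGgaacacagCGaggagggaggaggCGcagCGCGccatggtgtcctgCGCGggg
Hoxd8 start region: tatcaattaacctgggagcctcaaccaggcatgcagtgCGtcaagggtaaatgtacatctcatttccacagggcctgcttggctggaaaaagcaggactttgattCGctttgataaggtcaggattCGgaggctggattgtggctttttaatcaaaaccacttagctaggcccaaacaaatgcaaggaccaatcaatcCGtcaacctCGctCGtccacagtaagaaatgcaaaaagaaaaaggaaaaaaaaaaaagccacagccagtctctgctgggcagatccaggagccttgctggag
TATAAA, searched on both strands, is in 4 of the 24 Hox regions (16.7%), Hoxd13 among them, and in 13.6% of all regions.

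By paralog number, which follows the position along the axis, the counts were as follows. Of paralogs 1 to 3, 4 of 5 genes tested were higher. Of paralogs 4 to 8, 13 of 13 were higher, with a median of 0.51, though Hoxa4 was among them at only 0.0019. Of paralogs 9 to 13, 13 of 15 were higher, with a median of 0.46. This last group held 15 of the 33 Hox genes tested and 7 of the 12 at an unadjusted p under 0.05. Over all genes tested 49.8% were higher, and 9.17% were higher at an unadjusted p under 0.05.

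Each mutant line was then compared with each wild-type line in an edgeR fit of the 12 libraries, in which a call needed a log2 fold change of 1 or more in size besides an adjusted p under 0.05. These pairs share lines, so they are not independent of each other. No Hox gene of the 28 tested was called in any of the 6 line pairs; the background was 0.206% in the pair Mut-1 and WT-1 and 0.46% in the pair Mut-2 and WT-2. In the crossed pairs it was 0.181% (Mut-2, WT-1) and 0.369% (Mut-1, WT-2), and within a genotype 0.0181% (wild type) and 0.121% (mutant). Mut-2 against WT-2 held the most Hox genes before adjustment, 12 higher and 0 lower at an unadjusted p under 0.05 (background 9.67% higher and 5.45% lower), with 24 of 28 higher and a median of 0.76. For Mut-1 against WT-1, 19 of 28 were higher with a median of 0.38, and 4 higher and 0 lower had an unadjusted p under 0.05 (background 6.47% higher and 4.81% lower). In the crossed pairs 25 of 28 were higher in each. Mut-2 against WT-1 had a median of 0.56, with 7 higher and 0 lower at an unadjusted p under 0.05 (background 9.04% higher and 2.99% lower). Mut-1 against WT-2 had a median of 0.62, with 6 higher and 0 lower (background 7.43% higher and 5.64% lower). Between the wild-type lines 12 of 28 were higher in WT-2, with a median of -0.17 and 0 higher and 3 lower at an unadjusted p under 0.05 (background 4.17% higher and 3.44% lower). Between the mutant lines 21 of 28 were higher in Mut-2, with a median of 0.15 and 1 higher and 0 lower (background 3.24% higher and 3.65% lower).

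The calls in Mut-2 against WT-2 depended on the tool. DESeq2 called Hoxb6 at 1.36 (adjusted p = 0.0333), Hoxb8 at 1.30 (adjusted p = 0.0325) and Hoxc10 at 1.26 (adjusted p = 0.0181), against a background of 1.26% of genes, and 0 Hox genes in the other 5 pairs. In edgeR the same genes had log2 fold changes with adjusted p no smaller than 0.0825, the value of Hoxb8. Without a filter on low counts edgeR called 2, Hoxc5 at 1.51 and Hoxc10 at 1.27, against a background of 1.11% of genes. WT-2 replicate 3 had the lowest Hox sum of all 12 libraries, 58.2 CPM, together with the lowest feeder signal, 10072 CPM. Without it, edgeR log2 fold changes in this pair were 1.14 for Hoxb6, 1.13 for Hoxc5 and 1.56 for Hoxb8, with 0 calls. These were the lowest values with 1 library left out for Hoxb6 and Hoxc5, and the highest for Hoxb8. Hoxc10 ran from 1.10 to 1.67 in such fits. The part of this library in the DESeq2 calls was not tested.

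Genes that act with or upstream of Hox genes were compared in the same genotype fit, and 0 of them passed edgeR's adjusted p in any list. The background over all genes was 0.0% passing. At an unadjusted p under 0.05 it was 9.17% higher and 3.88% lower. Among Hox cofactors of the Pbx, Meis and Pknox families 7 of 9 were higher, with a median log2 fold change of 0.29 and 3 at an unadjusted p under 0.05. These were Meis3 at 0.57, Meis2 at 0.48 and Meis1 at 0.58, each at or below 0.28 with the feeder term. Of the Cdx, Gsx, Pdx and Evx genes 5 of 5 tested were higher, 1 of them at an unadjusted p under 0.05. Cdx1, a direct activator of Hox genes, had 35.6 ± 1.40 CPM in wild-type and 48.1 ± 4.48 CPM in mutant lines (SD, n = 2 each), a log2 fold change of 0.46 with an SE of 0.13 and an edgeR adjusted p of 0.238. Its libraries overlapped, from 17.9 to 56.4 CPM in wild type and from 34.1 to 56.6 CPM in mutants, and with the feeder term its log2 fold change was 0.54. Cdx2 lay between 0.06 and 1.53 CPM and Cdx4 at or below 0.25 CPM in all libraries.

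Of the retinoic acid genes 11 of 16 tested were higher, with a median of 0.11. The background at an unadjusted p under 0.05, for this and the next lists, was 9.17% higher and 3.88% lower. The retinal dehydrogenase Aldh1a1 was at 0.46 ± 0.04 CPM in wild-type and 1.05 ± 0.40 CPM in mutant lines and the receptor gene Rarb at 0.30 ± 0.01 and 0.67 ± 0.16 CPM (SD, n = 2 each), both among the 3 genes of the list at an unadjusted p under 0.05, with Aldh1a2. Of the repressors, 6 of 12 PRC2 and 11 of 20 PRC1 genes were higher, with medians of -0.03 and 0.02; at an unadjusted p under 0.05 lay 1 higher and 1 lower PRC2 gene and 1 higher PRC1 gene. Those PRC2 genes were Epop at 0.49 and Phf19 at -0.67. Ezh2, the PRC2 methyltransferase and not among them, was at 178.7 ± 12.1 CPM in wild-type and 146.9 ± 19.6 CPM in mutant lines (SD, n = 2 each). Its log2 fold change was -0.27 with an edgeR adjusted p of 0.405. With the feeder term Epop, Phf19 and Ezh2 were at 0.79, -0.59 and -0.13. Of the trithorax and related activators 2 of 10 were higher, with a median of -0.11 and 1 lower gene at an unadjusted p under 0.05.

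Gene lists of mesenchyme, axial progenitors and mesoderm, neural progenitors, primitive endoderm and pluripotency were counted in the same way. Of 17 transcription factor genes of positional mesenchyme, which fibroblasts express, 16 were higher, with a median of 0.62, 0 called by edgeR and 9 at an unadjusted p under 0.05; their summed level was 116.1 to 169.8 CPM in wild-type and 149.9 to 288.1 CPM in mutant libraries. Of the axial progenitor and mesoderm genes 4 of 13 were higher, with a median of -0.11. Those at an unadjusted p under 0.05 in edgeR were Foxc1 at 0.73, Gdf11 at 0.51 and Wnt3a at -0.62. Wnt3a was at 2.60 ± 0.20 CPM in wild-type and 1.67 ± 0.18 CPM in mutant lines (SD, n = 2 each). Of the neural progenitor genes 8 of 11 were higher with a median of 0.13, and of the primitive endoderm genes 11 of 12 with a median of 0.47, while 5 of 16 pluripotency genes were higher with a median of -0.04. In list order, median feeder terms in limma-voom were 0.66, 0.32, 0.32, 0.89 and -0.22. Pdgfra belongs to both the primitive endoderm list and the feeder list, so these lists are not separate. The primitive endoderm genes of smallest p, Col4a2, Gata4, Dab2 and Col4a1, were at 0.50, 0.73, 0.55 and 0.38 in edgeR. With the feeder term in limma-voom they were at -0.08, 0.39, -0.27 and -0.08. None of the last 4 lists had a gene called by edgeR, and at an unadjusted p under 0.05 they held 2, 2, 5 and 2 higher genes and 1, 0, 0 and 2 lower genes, in the order given. Over all genes in the fit 0.0% were called, and 9.17% were higher and 3.88% lower at an unadjusted p under 0.05. The part of these cell types in the Hox levels was not tested.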

How the data were processed

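RNA-seq of 4 mouse embryonic stem cell lines was analysed from 1 table of read counts per gene, which the authors deposited without normalization. Per the submitters' processing notes the tools were HTSeq 0.6.0, HISAT2 2.1.0, Bowtie2 2.2.3 and bcl2fastq, with build GRCm38. What each did, and with which annotation and strand option, is not given in the sources used here. Counts of the 3 libraries of a line were summed and 2 mutant lines compared with 2 wild-type lines by the quasi-likelihood test of edgeR 4.0.16 (R 4.3.3, TMM, filterByExpr, Benjamini-Hochberg at 0.05 over all genes tested). An exact permutation test of 2 lines against 2 cannot give a p below 0.333. SEs are the absolute log2 fold change divided by the root of the F statistic. Line pairs were compared in 1 edgeR fit of 12 libraries. DESeq2 1.42.0 and limma 3.58.1 (voom, line as a correlated block, with or without log2 summed feeder CPM) were alternatives, with RLE scaling, no filter, and each line or library left out. In limma the estimated correlation within a line was -0.0025 without and 0.050 with the feeder term. Its p-values thus treat libraries of a line nearly as independent. The scripts were tested on simulated data.

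The Hox genes and 12 gene lists with 192 symbols were chosen with earlier results of these data known. Named members are the 3 of highest mean CPM in each cluster, the 6 of smallest p, those called in a line pair and up to 3 whose genotypes do not overlap; other genes were named after their values were seen, or from a list by smallest p. WT-1 replicates 1 and 2 differed by a chi-square per degree of freedom of 1.66, against 12.0 to 42.5 for other pairs within a line, and no SD within a line is given. Same-numbered libraries had correlated deviations over 0.1 in every pair for 4 of the 6 line pairs, from 0.114 to 0.695, and not for WT-1 with Mut-1 (from -0.131) or WT-1 with Mut-2 (from -0.289); the labels do not say what a number shares. Positions are from GENCODE M21 on GRCm38. 1 gene of the set enters the counts and sums and is not reported here by itself.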

Additional observations from a re-analysis of the deposited data

Results flagged for a closer look

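In 38 groups of 6 libraries of a named Hox gene or Hox sum, 2 held a library far from the others by Dixon's criterion, of which chance gives about 1 in 20. Both were in WT-2 replicate 1. Hoxb4 was at 2.70 CPM there and at most 1.72 CPM in the other 5 wild-type libraries. Hoxc13 was at 20.7 CPM there and at most 14.5 CPM in the others.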

How the results depend on the processing

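The count of Hox genes called between genotypes was 0 in every alternative run except limma-voom of 12 libraries, with 1 (Hoxc10). The count with a higher mutant level stayed above that of lower ones in each, from 27 to 33 with 1 library left out, and was 19 of 27 in limma-voom without the 4 libraries of high feeder signal, a rule that leaves out all of Mut-2, so pairs with Mut-2 could not be fitted there. In Mut-2 against WT-2, DESeq2 called 3 and edgeR without a filter 2, in place of 0. The count of Hox genes whose genotypes do not overlap was 2 to 5 with 1 library left out: 5 without WT-1 replicate 3 (adding Hoxa10, Hoxb7 and Hoxd13), 5 without Mut-1 replicate 2 (adding Hoxa7, Hoxa10 and Hoxd13). The log2 ratio of mean library Hox sums was 0.40, and 0.30 as a mean of log2 (CPM + 0.5), 0.14 without the libraries of high feeder signal and 0.20 without the 3 of highest, an alternative chosen after seeing the data; the cause was not tested. Of 364 values of 14 named genes under alternatives, 350 kept direction and side of the threshold, 1 passed it and 13 changed sign, in Hoxc13, Hoxc8 and Hoxc4. Hoxc13 was -0.090 without line WT-1, and from -0.024 to 0.19 with 1 library left out. Hoxc8 was -0.10 (limma-voom) and -0.14 (line totals) without the libraries of high feeder signal. Hoxc4 was -0.15 with the feeder covariate, -0.10 (limma-voom) and -0.20 (line totals) without the libraries of high feeder signal, -0.27 and -0.40 without the 3 of highest, -0.077 without line Mut-2, and from -0.039 to 0.31 with 1 library left out. With the replicate number as a block, 0 Hox genes were called in every line pair, as without it. The 6 untested genes had at most 9 counts in any library, too few to show a difference at this depth.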
